A study of Homo sapiens with 6 samples.

Results

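The genes described here are 33 human genes of DNA replication, chosen by symbol from the 63140 genes of the deposited count table. They cover licensing, S-phase entry, nucleotide supply and the replication fork, and they were sorted into 8 sub-complexes or functions. Each symbol matched 1 row of the table, and all 33 were among the 16754 genes that passed the filter on low counts. Their expression was measured by RNA sequencing in HEK293, an established human embryonic kidney line that carries adenovirus early region 1 DNA. The control group received DMSO (dimethyl sulfoxide), the solvent. The other group was confluent when 100 nM of GSK-A1, an inhibitor of the lipid kinase PI4KA, was added for 24 h. The labels attach this same protocol to the control libraries, and name no genetic change in either group. Each group had 3 libraries, which the labels call biological replicates, and every library has the same lane label. Whether the replicates were separate cultures is not stated, so p-values measure the spread between these libraries.

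Before S phase, the origin recognition complex, CDC6 and CDT1 load rings of the MCM2 to MCM7 proteins onto DNA. CDC45 and the GINS complex then turn each ring into an active helicase, and DNA polymerases copy the strands behind it while PCNA, the sliding clamp, holds them in place. Many of the genes are transcribed under E2F factors, which retinoblastoma-family proteins restrain until cyclin E and its kinase CDK2 act on them. In HEK293 the adenoviral E1A protein binds retinoblastoma-family proteins, so E2F activity in this line is less tied to growth signals than in normal cells.

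Libraries held 33040178 to 47777233 counts, so the members were deeply counted, with 831 to 29112 counts for a member in a library. GSK-A1 replicate 2 stood apart: its chi-square per gene against the other GSK-A1 libraries was 10.98 and 15.5, against 1.84 to 3.14 between DMSO libraries and 2.88 between GSK-A1 replicates 1 and 3. Of 5 marker genes for HEK293, NEFL, VIM, LHX1 and PAX2 were present, and NEFM was nearly absent with 2 to 13 counts per library. VIM rose by 0.17 and PAX2 fell by 0.43 on the log2 scale (edgeR adjusted p = 0.00423 and 0.0177), and their part in the results below was not tested. None of 7 markers of other cell types exceeded 0.313 CPM (counts divided by the library total in units of 1e6, with totals adjusted by TMM, edgeR's trimmed-mean factors) in any library. In bulk RNA, fewer cells in S phase and less of a transcript per cell cannot be told apart.

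Promoter windows were read to show what the members have in common beside their function. The windows reach from 250 bases before to 50 bases after each start in a RefSeq table of build GRCh38.p14, and 30 of the 33 members matched; CCNE2, MCM4 and MCM5 did not. The letters TTTCCCGC, TTTCGCGC, TTTGCCGC and TTTGGCGC, which match the E2F consensus, were searched on both strands. At least 1 of these words lay in a window of 18 of the 30 members (60.0%), against 3.99% of the 27305 genes of the table. CCAAT, the letters bound by NF-Y, lay in 63.3% of the members and in 39.7% of all genes. TTTGAA, the core of the cell cycle homology region of mitotic genes, lay in 3.33% of the members and in 18.2% of all genes. Among 62 other replication genes with a window, from the list described below, E2F letters lay in 29%, CCAAT in 58.1% and TTTGAA in 14.5%. Counted by window, since some genes have several starts, E2F letters were in 48.7% of the members' 39 windows and 3.31% of all windows. A match is a description of letters and not a measured binding site.

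The sequences shown are the 120 bases before the start of 6 of the 7 genes that changed with GSK-A1, the member without a window (MCM5) being left out. They show where E2F letters lie in genes that rose and in genes that fell, and which of them hold none. Capitals mark E2F letters, and each line runs 5′ to 3′ on the gene's own strand.
UHRF1 (fell; chr19:4909381-4909500, plus strand, the first of its 3 starts): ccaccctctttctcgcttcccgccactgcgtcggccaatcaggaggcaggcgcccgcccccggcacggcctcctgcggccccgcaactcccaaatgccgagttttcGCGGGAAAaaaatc
CCNE1 (fell; chr19:29811871-29811990, plus strand): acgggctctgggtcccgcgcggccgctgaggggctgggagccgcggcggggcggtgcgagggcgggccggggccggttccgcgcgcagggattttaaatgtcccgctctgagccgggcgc
MCM2 (fell; chr3:127598291-127598410, plus strand): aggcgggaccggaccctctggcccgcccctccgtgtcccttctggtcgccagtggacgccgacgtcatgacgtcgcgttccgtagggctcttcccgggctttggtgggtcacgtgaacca
MCM2 (the next 20 bases, chr3:127598411-127598430): ctTTTCGCGCGAAAcctggt
E2F2 (rose; chr1:23531234-23531353, minus strand): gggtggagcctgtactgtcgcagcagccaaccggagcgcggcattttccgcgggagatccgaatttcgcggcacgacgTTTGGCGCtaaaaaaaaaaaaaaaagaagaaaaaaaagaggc
CDC25A (rose; chr3:48188418-48188537, minus strand): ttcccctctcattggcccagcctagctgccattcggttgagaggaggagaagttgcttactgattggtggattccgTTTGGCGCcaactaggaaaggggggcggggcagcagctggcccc
MCM10 (rose; chr10:13161438-13161557, plus strand): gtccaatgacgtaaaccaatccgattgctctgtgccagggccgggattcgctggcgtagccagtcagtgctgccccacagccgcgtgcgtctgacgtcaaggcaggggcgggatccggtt

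E2F2 and CDC25A hold the same word, TTTGGCGC, beginning 42 and 44 bases before their starts. In MCM2 the letters overlap on both strands just after the start, and in UHRF1 a match begins 14 bases before the first start, and another 160 bases before a later one. The windows of CCNE1 and MCM10 hold none of the 4 words, which says only that these letters are not there. Among the 18 members with E2F letters, 2 rose and 2 fell, with a median log2 fold change of 0.01. Among the 12 without, 1 rose and 1 fell, also with a median of 0.01. Over all genes tested, 12.0% rose and 10.9% fell at the threshold given below.

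**Figure D1:**
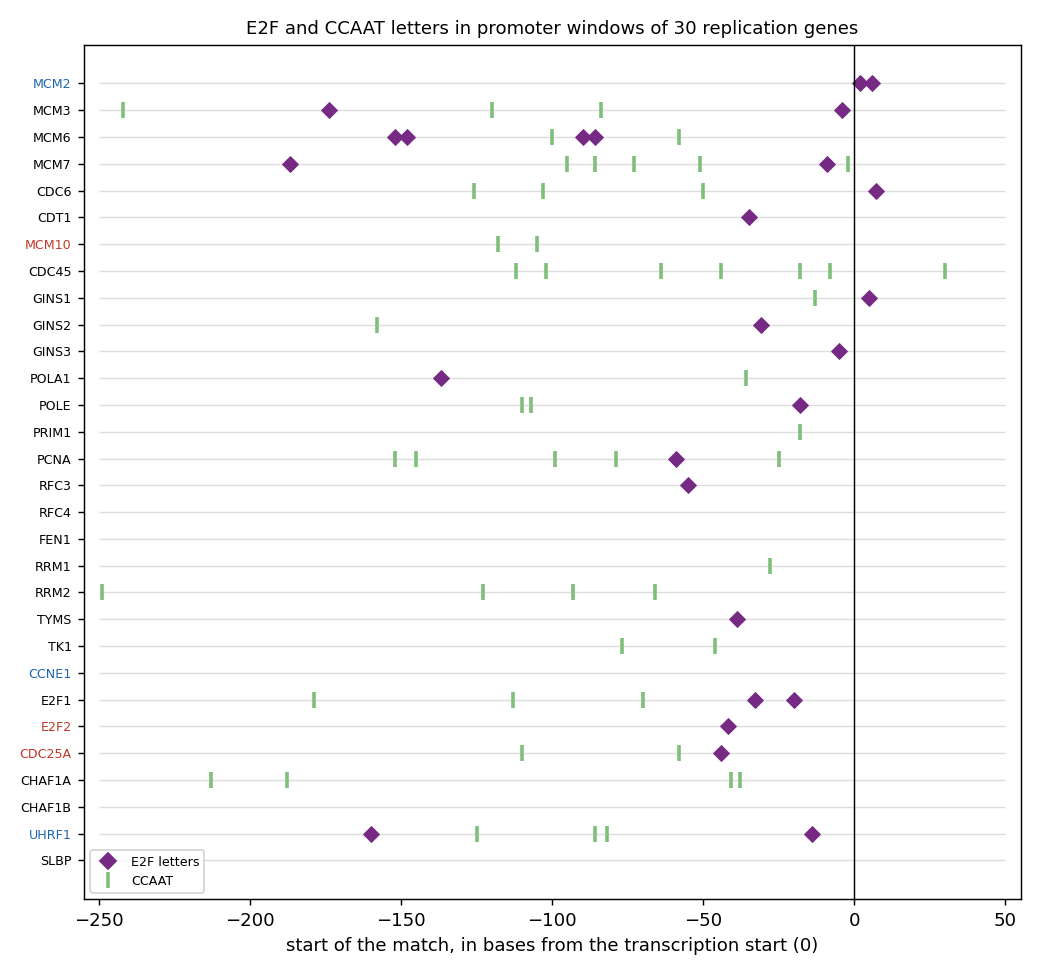
Positions of E2F letters (diamonds) and CCAAT (ticks) in the promoter windows of 30 members, in bases from the transcription start, with matches of all starts of a gene drawn on 1 line. Names in blue and red are members called lower and higher with GSK-A1; E2F letters lie in windows of 18 of the 30 genes and in those of both colours.

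GSK-A1 was compared with DMSO over all genes, and the members were read from that fit. In all, 7 members changed, 3 upward and 4 downward, out of 33 (21.2%), at an edgeR quasi-likelihood adjusted p under 0.05. Over all genes tested 22.9% were called (12.0% higher and 10.9% lower), so the share among replication genes was near the background. The changes were small: MCM2, the least of the falls, fell by 12.5% and CCNE1 fell by 15.6%, while the largest rise, of CDC25A, was 13.1%. Cyclin E1, MCM5, UHRF1 and MCM2 fell, while CDC25A, E2F2 and MCM10 rose. The median log2 fold change of the 33 members was 0.01, with 18 above 0 and 15 below, against a median of -0.01 over all genes tested. Regardless of sign, the median change was 0.06 (log2) among members and 0.12 over all genes, which include many genes of lower counts.

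All 7 were also called under each other scaling, count filter and tool tried at the same threshold. Of them, 6 (MCM2, MCM5, CCNE1, UHRF1, E2F2 and CDC25A) were called in all 16 alternative fits, and MCM10 in 14. The number of calls rose to 13, or 39.4% of the members, without GSK-A1 replicate 2 (28.1% of all genes in that fit). It was also 13 when a trend with GC content was removed from each library (26.3% of all genes). The groups of 3 libraries did not overlap for 12 members (36.4%), against 40.5% of all genes tested.

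**Figure D2:**
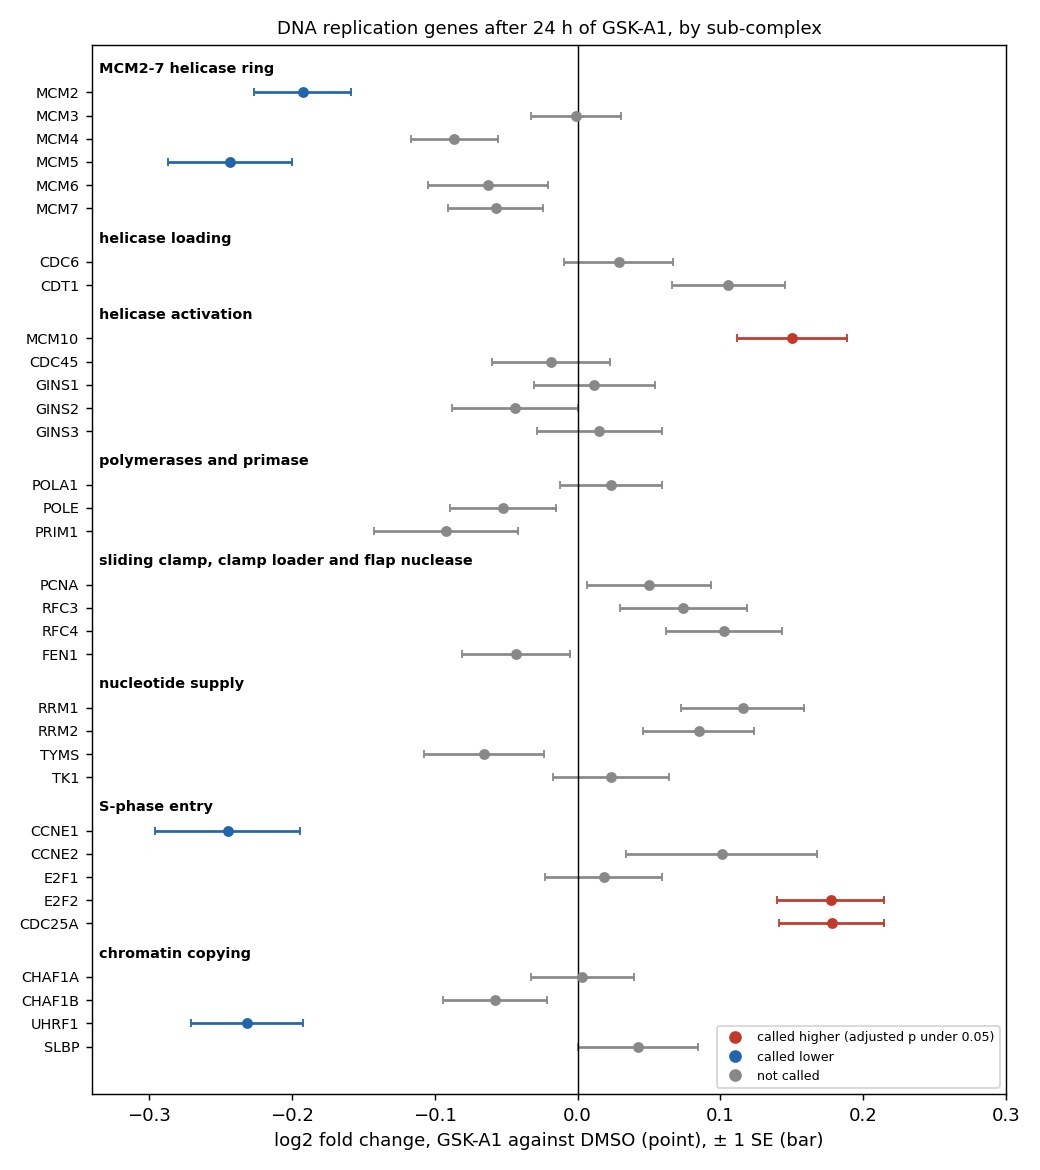
Log2 fold change of GSK-A1 against DMSO for the 33 members, ordered by sub-complex, with bars of 1 standard error from edgeR and 3 libraries per group. The 4 called falls lie between -0.24 and -0.19 and the 3 called rises between 0.15 and 0.18; helicase loading, polymerases, clamp and nucleotide genes hold no called member.

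In the helicase ring all 6 members had a negative log2 fold change, with a median of -0.07. Of the 6, 2 (33.3%) were called lower. Over all genes tested, 8803 of 16754 had a negative log2 fold change and 10.9% were called lower. MCM3, the ring member nearest to 0 at -0.00080, changed sign in 7 of the 16 alternatives. The summed CPM of the ring was 2537, 2516 and 2515 in the controls and 2417, 2361 and 2374 with GSK-A1, in the order of replicates 1 to 3 that is kept throughout. All 3 GSK-A1 sums lay below the DMSO sums, a difference of -5.49%. The ring was not alone in having all 3 treated sums on 1 side of the controls. Such sums differed by 6.93% in S-phase entry, 5.60% in helicase loading, 2.26% in helicase activation and -4.57% in chromatin copying. The sums of the polymerase, clamp and nucleotide genes overlapped between the groups.

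MCM2 (ENSG00000073111, chr3:127598223-127622436 in GENCODE release 29), a ring subunit whose tail also binds histones, was at 335, 321 and 320 CPM with DMSO. With GSK-A1 it stood at 288, 282 and 284 CPM. The 3 treated libraries lay close together and below every control. The fitted difference (log2, ± SE) was -0.19 ± 0.03, with an edgeR adjusted p of 8.63e-04. The antisense gene AC023593.1 overlaps 22.7% of its exons. The library kit kept strand, but whether counting used it is not given in the sources used here, so these reads may not be separated.

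MCM5 (ENSG00000100297, chr22:35400063-35425430), the subunit that forms the gate of the ring with MCM2, stood at 196, 182 and 184 CPM with DMSO and at 166, 150 and 159 CPM with GSK-A1. The groups did not overlap, and GSK-A1 replicate 2 was the lowest library. The fitted difference was -0.24 ± 0.04, with an edgeR adjusted p of 8.97e-04, and without GSK-A1 replicate 2 the call remained.

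MCM4, an ATPase subunit of the ring, stood at 601, 604 and 611 CPM with DMSO and at 572, 571 and 567 CPM with GSK-A1. The groups were apart, yet the change of -0.09 ± 0.03 missed the threshold (SE; edgeR adjusted p = 0.0519), and it was called in 6 of the 16 alternatives. MCM6 went from 220, 224 and 224 CPM to 209, 228 and 202 CPM, with GSK-A1 replicate 2 above all controls. Its difference of -0.06 ± 0.04 was not called (edgeR adjusted p = 0.307), but without GSK-A1 replicate 2 it was -0.11 (edgeR adjusted p = 0.0027). MCM7 changed by -0.06 ± 0.03 and was called in 1 of the 16 alternatives.

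The proteins act as a ring with equal numbers of each subunit, so the transcripts were also set beside each other per length, in CPM per kilobase of the principal transcript of GENCODE release 29. With DMSO, MCM7 was the highest at 206 CPM per kilobase and MCM3 followed at 179. MCM4 was at 145, MCM2 at 89.8, MCM6 at 59.5 and MCM5, the lowest, at 53.0. Of the ring's summed level per length, MCM5 took 7.25% ± 0.26 (SD, n = 3) in the controls and 6.46% ± 0.25 after treatment, and MCM2 took 12.3% ± 0.3 and 11.3% ± 0.04. MCM3 took 24.4% ± 0.09 and 25.8% ± 0.4 in the same order. The order of the 6 levels was the same in the mean of each group, and MCM5 and MCM6 were the neighbours nearest to each other. These lengths assume that the principal transcript is the one expressed.

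Neither of the 2 genes that load the ring was called, against 22.9% of all genes tested. CDC6, the ATPase that brings the ring to origins, differed by 0.03 ± 0.04 (log2 fold change and SE), which became negative with upper-quartile factors. CDT1, which binds the ring during loading, was at 230, 252 and 235 CPM with DMSO and at 262, 249 and 260 CPM with GSK-A1. Only GSK-A1 replicate 2 lay within the range of the controls. Its change of 0.11 ± 0.04 missed the threshold (edgeR adjusted p = 0.0650). Without GSK-A1 replicate 2 it was 0.13 (edgeR adjusted p = 7.44e-04), and without DMSO replicate 2 it was 0.15 (edgeR adjusted p = 0.0400).

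Of the 5 genes that activate the helicase, 1 was called (20%, against 22.9% of all genes tested). MCM10 (ENSG00000065328, chr10:13161554-13211104), a scaffold that helps the loaded ring start to unwind DNA, stood at 104, 103 and 101 CPM with DMSO and at 110, 117 and 113 CPM with GSK-A1. Every treated library lay above every control. The rise was 0.15 ± 0.04 (SE; edgeR adjusted p = 0.0109), and it was lost without DMSO replicate 2 (adjusted p = 0.0506) or DMSO replicate 3 (adjusted p = 0.0724). CDC45, GINS1, GINS2 and GINS3, which join the ring to make the active helicase, had log2 fold changes between -0.04 (GINS2) and 0.02 (GINS3), each about the size of its standard error or less, and the signs of CDC45, GINS1 and GINS3 turned in some alternatives.

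None of the 3 polymerase and primase genes was called, against 22.9% of all genes tested. POLA1, the catalytic subunit of polymerase alpha, differed by 0.02 ± 0.04, negative in 2 alternatives, and POLE, the catalytic subunit of the leading-strand polymerase, by -0.05 ± 0.04 (SE). PRIM1, the primase that lays down RNA primers, was at 40.6, 41.0 and 41.2 CPM with DMSO and at 36.6, 41.3 and 37.4 CPM with GSK-A1. GSK-A1 replicates 1 and 3 lay below the controls and replicate 2 above them. Its difference of -0.09 ± 0.05 was not called (edgeR adjusted p = 0.205), but leaving GSK-A1 replicate 2 out gave a call (-0.14, edgeR adjusted p = 0.00755). The transcript of PRIM1 shares 22.2% of its 50-base stretches with an overlapping gene, so some of its reads could have been assigned elsewhere.

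None of the 4 clamp, clamp loader and flap nuclease genes was called either, against 22.9% of all genes tested. PCNA, the sliding clamp, was at 263, 259 and 250 CPM with DMSO and at 256, 287 and 257 CPM with GSK-A1. Only GSK-A1 replicate 2 was higher than the controls, and without it the log2 difference was -0.0015. RFC4, a subunit of the loader that opens the clamp, was at 76.7, 79.7 and 80.5 CPM with DMSO and at 81.9, 86.4 and 86.1 CPM with GSK-A1. These groups were apart, and the difference of 0.10 ± 0.04 (edgeR adjusted p = 0.0813) passed once GSK-A1 replicate 2 was left out (0.09, edgeR adjusted p = 0.0340). RFC3, another loader subunit, differed by 0.07 ± 0.04, and FEN1, which trims the flaps of Okazaki fragments, by -0.04 ± 0.04 (SE).

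Among the genes of nucleotide supply, RRM1 and RRM2 encode the subunits of ribonucleotide reductase, which makes deoxynucleotides. RRM1 was at 233, 247 and 238 CPM with DMSO and at 252, 278 and 248 CPM with GSK-A1, and RRM2 at 370, 394 and 394 CPM with DMSO and at 400, 430 and 399 CPM with GSK-A1. In both genes the treated libraries lay above the controls, with replicate 2 the highest. The differences were 0.12 ± 0.04 (edgeR adjusted p = 0.0650) and 0.08 ± 0.04 (edgeR adjusted p = 0.127) and were not called. RRM1 was called in 3 alternatives, among them the fit without GSK-A1 replicate 3 (0.15, edgeR adjusted p = 0.0230). Of the 50-base stretches of RRM2, 29.6% also occur in other genes.

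TYMS, thymidylate synthase, was at 225, 232 and 227 CPM with DMSO and at 211, 233 and 209 CPM with GSK-A1. Replicate 2 again lay above the controls and the other treated libraries below them. Its difference of -0.07 ± 0.04 was not called (edgeR adjusted p = 0.284) but passed once GSK-A1 replicate 2 was left out (-0.11, edgeR adjusted p = 0.00169). ENOSF1 on the opposite strand covered 39.2% of its exons. TK1, the salvage enzyme thymidine kinase, differed by 0.02 ± 0.04 (SE), a value below 0 with upper-quartile factors.

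Of the 5 genes of S-phase entry, 3 were called (60%, against 22.9% of all genes tested), 2 higher and 1 lower. CCNE1 (ENSG00000105173, chr19:29811898-29824308), cyclin E1, stood at 28.1, 28.6 and 27.7 CPM with DMSO and at 23.6, 24.7 and 23.1 CPM with GSK-A1. Each treated library was below each control. It fell by 15.6%, or -0.24 ± 0.05 in log2, with an edgeR adjusted p of 0.00276.

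Cyclin E2, the product of the paralog CCNE2, was at 25.8, 26.5 and 25.3 CPM with DMSO and at 27.1, 31.2 and 25.1 CPM with GSK-A1. The treated libraries lay on either side of the controls, and the difference of 0.10 ± 0.07 was not called (SE; edgeR adjusted p = 0.299). INTS8 on the opposite strand covered 37.1% of its exons. Whether the cyclins differed in their response was not tested.

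E2F2 (ENSG00000007968, chr1:23506430-23531220), an activating E2F factor, stood at 82.5, 82.8 and 83.3 CPM with DMSO and at 92.5, 93.4 and 95.2 CPM with GSK-A1. The spread within each group was small beside the gap. It rose by 0.18 ± 0.04 (SE; edgeR adjusted p = 0.00321). E2F1, the activating factor beside it, was at 109, 108 and 108 CPM with DMSO and at 112, 104 and 113 CPM with GSK-A1, a difference of 0.02 ± 0.04 that was called in 1 of the 16 alternatives and was below 0 in 2. CDC25A (ENSG00000164045, chr3:48157146-48188402), the phosphatase that activates CDK2, stood at 117, 115 and 118 CPM with DMSO and at 132, 135 and 129 CPM with GSK-A1. It rose by 0.18 ± 0.04 (SE; edgeR adjusted p = 0.00269), with every treated library above every control.

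**Figure D3:**
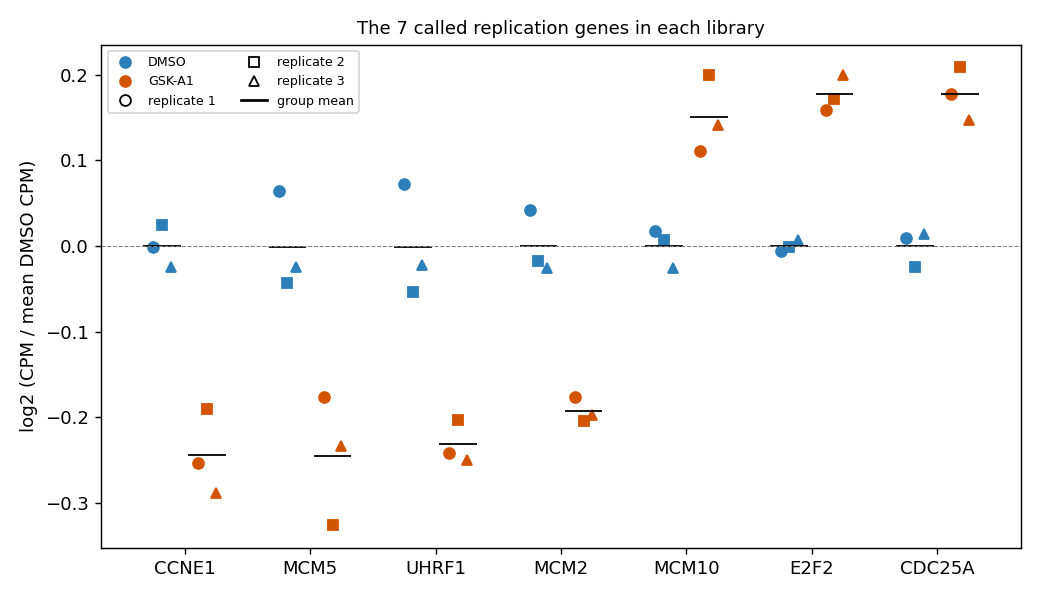
Log2 ratio of CPM to the mean of the DMSO libraries for the 7 called members, with 1 point per library (3 DMSO, 3 GSK-A1) and a line at each group mean. In all 7 genes the GSK-A1 points lie on 1 side of the DMSO points, and GSK-A1 replicate 2 (square) is the farthest from the controls for MCM5, MCM10, CDC25A and MCM2 and the nearest for CCNE1 and UHRF1.

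Of the 4 genes that rebuild chromatin behind the fork, only UHRF1 was called (25%, against 22.9% of all genes tested). UHRF1 (ENSG00000276043, chr19:4903080-4962154), which brings the maintenance DNA methyltransferase to newly copied DNA, stood at 216, 198 and 202 CPM with DMSO and at 173, 178 and 173 CPM with GSK-A1. The highest treated library was below the lowest control. It fell by 14.8%, or -0.23 ± 0.04 in log2, with the smallest p among the members (edgeR adjusted p = 6.03e-04). Of its 50-base stretches, 25.7% also occur in other genes, so part of its count could be misassigned. CHAF1A and CHAF1B, subunits of the factor that deposits histones at the fork, differed by 0.0033 ± 0.04 and -0.06 ± 0.04 (SE), the former turning sign in 5 alternatives. SLBP, which binds the stem-loop of histone mRNAs, differed by 0.04 ± 0.04.

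The 26 members that were not called had log2 fold changes between -0.09 (PRIM1) and 0.12 (RRM1), with standard errors of 0.03 to 0.07. Of these, 15 were above 0 and 11 below, and 5 had groups that did not overlap (MCM4, RFC4, RRM1, RRM2 and CHAF1B). Over all genes tested, called or not, the groups did not overlap for 40.5%.

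GSK-A1 replicate 2 differed from its group along GC content. Across the 33 members, the log2 ratio of this library to the DMSO mean had a Pearson correlation of -0.54 with the GC content of the longest transcript (Spearman -0.55). The same correlation was -0.03 in GSK-A1 replicate 1 and -0.0069 in replicate 3. Over the 16094 tested genes with a GC value it was -0.32 in replicate 2, -0.10 in replicate 1 and -0.06 in replicate 3. These are descriptions across genes, which share a library and are not independent. The part of GC content in the calls was tested only by removing the trend, which kept all 7 calls and added CDT1, E2F1 and TK1 upward and MCM4, MCM6 and PRIM1 downward.

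**Figure D4:**
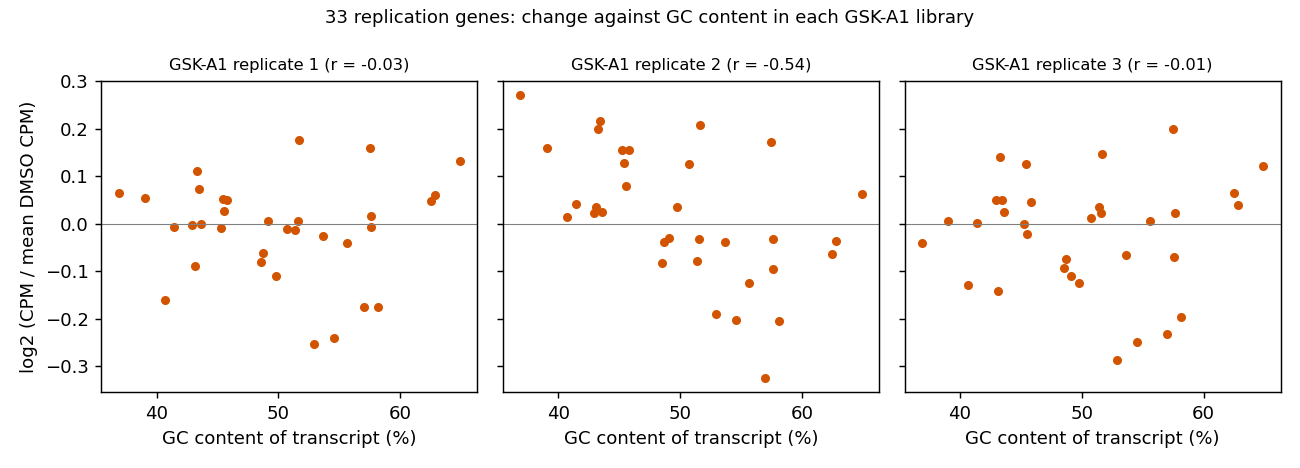
Log2 ratio of CPM to the DMSO mean (vertical) against GC content of the longest transcript in percent (horizontal), with 1 point for each of the 33 members and 1 panel per GSK-A1 library. The points slope down in replicate 2 (r = -0.54) and show no slope in replicates 1 (r = -0.03) and 3 (r = -0.0069).

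The other genes of the pathway were read from 80 rows of the table for a list of genes in 8 groups, POLA2 having more than 1 row. Of these, 10 rose and 9 fell (23.8%, against 22.9% of all genes tested), with a median log2 fold change of 0.01. The count ranged from 9 to 31 when 1 library was left out, and was 31 without GSK-A1 replicate 2. It was 11, 9 and 10 without DMSO replicates 1, 2 and 3.

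The G1 to S control genes had 5 of 18 called (27.8%, against 22.9% of all genes tested). All 5 were higher, where 12.0% of all genes tested were called higher. CDKN1A, which encodes the CDK inhibitor p21, had the largest change of the list: it stood at 77.1, 81.7 and 78.4 CPM with DMSO and at 112, 110 and 108 CPM with GSK-A1. The groups were far apart, and it rose by 0.47 ± 0.04 (SE; edgeR adjusted p = 6.71e-07). E2F3, the third activating E2F, rose by 0.20 ± 0.04 (edgeR adjusted p = 0.00126). Of the activating factors among the members, E2F2 was called higher and E2F1 was not called. CDK2, the kinase of cyclin E, was at 118, 121 and 118 CPM with DMSO and at 116, 122 and 119 CPM with GSK-A1, with a log2 difference of 0.00090.

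None of the 8 genes of origin recognition and licensing control was called, and 7 of them were above 0. Over all genes tested, 22.9% were called and 7951 of 16754 were above 0. Among the origin firing genes, TOPBP1, an activator of the helicase assembly, rose by 0.15 ± 0.04, and TICRR, its partner, fell by 0.12 on the log2 scale with an SE of 0.04 (edgeR adjusted p = 0.0171 and 0.0223). Neither call held without any 1 of the DMSO libraries, where the adjusted p was between 0.0646 and 0.0993. TICRR was also lost without GSK-A1 replicate 1 (0.111) and with no count filter (0.0685), and TOPBP1 with upper-quartile factors (0.0565).

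At the fork, TIMELESS, a subunit of the fork protection complex, stood at 242, 238 and 240 CPM with DMSO and at 216, 216 and 216 CPM with GSK-A1. It fell by 0.15 on the log2 scale with an SE of 0.03 (edgeR adjusted p = 0.00387). ATAD5, which unloads PCNA, rose by 0.23 ± 0.05 (edgeR adjusted p = 0.00343). LIG1, the ligase that joins Okazaki fragments, had the largest fall of the list, from 150, 150 and 156 CPM with DMSO to 125, 108 and 132 CPM with GSK-A1. All treated libraries were below the controls, with replicate 2 the lowest, and the change was -0.32 ± 0.06 (SE; edgeR adjusted p = 0.00248).

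PCLAF, which binds PCNA, changed by -0.28 ± 0.08 (edgeR adjusted p = 0.0271). That call needed DMSO replicate 1 (0.149 when left out), replicate 2 (0.0631) and GSK-A1 replicate 1 (0.139), and the transcript shares 25.9% of its 50-base stretches with other genes. POLD2, a subunit of polymerase delta, changed by -0.14 ± 0.04 (edgeR adjusted p = 0.0177). It was the 1 call among the 10 entries of its group (10%, against 22.9% of all genes tested), where POLA2 has more than 1 entry. The call was lost without DMSO replicate 1 (0.0954), 2 (0.0539) or 3 (0.0694).

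Of the 8 other genes of nucleotide supply, 4 were called (50%, against 22.9% of all genes tested), 1 higher and 3 lower. Among them, SHMT1, a serine hydroxymethyltransferase of folate metabolism, changed by -0.15 ± 0.04 (edgeR adjusted p = 0.0127). The SHMT1 call was lost without DMSO replicate 2 (0.0809) or 3 (0.0574). For histone supply, LSM11, a part of the particle that cuts histone mRNAs, rose by 0.21 ± 0.04 (edgeR adjusted p = 0.00209). ASF1B, a histone chaperone that hands histones to the CHAF1 proteins, changed by -0.18 ± 0.04 (edgeR adjusted p = 0.00348).

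Of 68 replication-dependent histone genes in the table, 23 passed the count filter. Of these 23, 4 were called (17.4%, against 22.9% of all genes tested). All 4 were higher in the main fit, where 12.0% of all genes tested were called higher. The other 45 of the 68 did not pass the filter. Their low counts need not mean low transcription, since how well these libraries capture histone mRNAs was not tested. H1-2, a linker histone, stood at 8.93, 10.0 and 9.45 CPM with DMSO and at 12.9, 13.6 and 13.8 CPM with GSK-A1, all treated libraries being above the controls. It rose by 0.50 ± 0.07 (SE; edgeR adjusted p = 1.18e-04), and H2BC12, a histone H2B gene, by 0.35 ± 0.06 (edgeR adjusted p = 5.27e-04). Of the 50-base stretches of H2BC12, 74.1% occur in other genes, so its count cannot be tied to that copy. The count of 4 became 2 without DMSO replicate 3. Calls were not all higher in every fit: upper-quartile factors gave 3 higher and 1 lower. Leaving out GSK-A1 replicate 3 gave 2 higher and 1 lower.

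**Figure D5:**
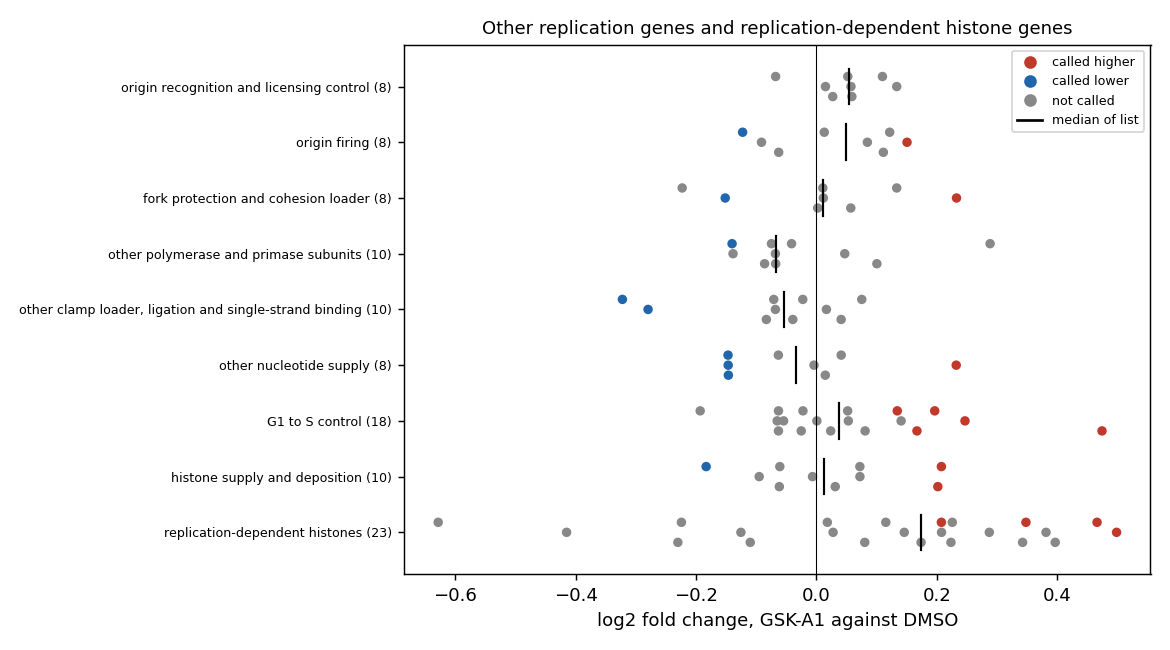
Log2 fold change of GSK-A1 against DMSO for the 80 entries of other replication genes (POLA2 having more than 1) and the 23 tested histone genes. There is 1 point per entry, 1 row per group and a bar at each group's median. Red and blue points are genes called higher and lower; CDKN1A at 0.47 and H1-2 at 0.50 lie farthest to the right among the called genes, and LIG1 at -0.32 farthest to the left.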

How the data were processed

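Total RNA of 6 HEK293 libraries was sequenced. The deposited table holds raw counts per gene for each library, without normalization, per the file headers and values. The submitters' processing notes name cutadapt 5.1, STAR 2.7.11b, featureCounts, Subread 2.1.1, DESeq2 1.38.0 and build GRCh38.p13. The annotation release and strand setting are not given in the sources used here.

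Counts were fitted with edgeR 4.0.16 in R 4.3.3: genes kept by filterByExpr (smallest count 10, smallest total 15), TMM factors, robust quasi-likelihood F test, and Benjamini-Hochberg adjustment over all 16754 genes tested. Alternatives were other library factors and filters, DESeq2 1.42.0, limma 3.58.1 with voom weights, a block for replicate number, a GC offset, a stricter threshold, and each library left out in turn. The code was tested on simulated counts.

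All members were read in full where called, or called without 1 library, and otherwise by range and the extremes of each sub-complex; up to 2 called genes of each other list were named. One gene that this rule names is not reported here. The members and lists were chosen with earlier results of these data known. Gene positions, lengths, GC content and overlaps come from GENCODE release 29, not necessarily the annotation used for counting, and promoters from RefSeq. CCNE2, E2F1, RRM2, PCNA, CDK2 and others outside the naming rule were described after their values were seen.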

Additional observations from a re-analysis of the deposited data

How the results depend on the processing

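Calls of members stayed within 1.5 times of 7 in all alternatives except with the GC trend removed (13) and without GSK-A1 replicate 2; without 1 library they ranged from 6 to 13. At an adjusted p under 0.01, calls fell to 9 among other replication genes, 2 among histone genes and 1871 over all genes. Without 1 library these counts ranged from 9 to 31, from 2 to 5 and from 2163 to 4890; over all genes they were 2163, 2213 and 2206 without DMSO replicates 1, 2 and 3. Under upper-quartile factors 7.99% of all genes were called higher and 16.0% lower, against 12.0% and 10.9%, and 7 of the other replication genes higher and 16 lower. These factors moved the median log2 fold change of all genes from -0.01 to -0.05. They also moved the medians to -0.0291 for members, -0.116 for the helicase ring, 0.0264 for helicase loading, -0.0291 for helicase activation, -0.0926 for polymerases and primase, 0.0601 for S-phase entry and -0.068 for chromatin copying. With the GC trend removed the medians were -0.0047 for members, -0.0931 for the ring, 0.0945 for loading, -0.0145 for activation, -0.0156 for polymerases and -0.00383 for chromatin copying. The chromatin copying median was -0.0352 with library totals only and -0.0182 with no count filter. Without 1 library the medians ranged from -0.00184 to 0.0146 for members, -0.0963 to -0.0629 for the ring, -0.0708 to -0.0131 for polymerases, 0.0607 to 0.168 for S-phase entry and -0.0348 to -0.0173 for chromatin copying. Signs turned for CDC6 (-0.0121) and POLA1 (-0.0172) under upper-quartile factors, for POLA1 (-0.0104) with the GC trend removed, and for MCM3 under RLE factors (0.0056), DESeq2 (0.0056), no count filter (0.0080) and the GC trend (0.0143). With 1 library left out, MCM3 also turned for DMSO replicate 1 (0.0038) and for GSK-A1 replicates 1 (0.0029) and 2 (0.0187), its values ranging from -0.00885 to 0.0187. Other members near 0 turned too: E2F1 (-0.02), TK1 (-0.02), GINS1 (-0.03), GINS3 (-0.03) and CHAF1A (-0.04) under upper-quartile factors, GINS1 (-0.03) and GINS3 (-0.01) with the GC trend removed, and CHAF1A under library totals (-0.0049) and the 1 CPM filter (-0.0037). With a library left out, signs turned for CDC45 (up to 0.01), PCNA (-0.0015), E2F1 (-0.0018), GINS1 (down to -0.0083) and CHAF1A (down to -0.02). The causes of these shifts were not tested.

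The replicate block gave 8 calls among the members, adding RRM1 (0.11, edgeR adjusted p = 0.0255), and 22 among other replication genes; it removed none of the 7. Replicate numbers are not known to pair cultures, so the main fit had no block. The deviations of same-numbered libraries from their group means correlated at 0.011 to 0.032. Each DMSO library correlated best with the GSK-A1 library of its own number. GSK-A1 replicate 1 correlated slightly better with DMSO replicate 2 (0.0117) than with DMSO replicate 1 (0.0109). With 831 counts or more for a member in a library, both counting error and replicate spread limit what can be detected. P-values measure the spread between these libraries.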
